A study of Mus musculus with 4 samples.

Results

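The nuclear genes for the mitochondrial respiratory chain and ATP synthase were followed in mouse embryonic fibroblasts. Members were the probe sets annotated to a single gene symbol that begins with Nduf (complex I), Sdha to Sdhd (complex II), Uqcr (complex III), Cox4 to Cox8 (complex IV) or Atp5 (complex V, the ATP synthase). The choice uses symbols and no measured value. It found 100 of the 12488 probe sets on the array, which stand for 73 of 8251 genes: 31 of complex I, 6 of complex II, 7 of complex III, 15 of complex IV and 14 of complex V. The prefixes also take in assembly factors, such as Ndufaf1 and Sdhaf1, which are not subunits of the finished enzymes. Another 10 probe sets carry several symbols and were not members.

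The study profiled total RNA with 4 Affymetrix U74Av2 arrays, 1 for each group. The groups were wild-type cells without stimulation, wild-type cells given 20 ng/ml TNF for 4 hours, Xiap knockout cells without stimulation, and Xiap knockout cells given the same TNF. Xiap codes for an X-linked protein that inhibits apoptosis, and TNF is an inflammatory cytokine that activates NF-kB. The sources used here do not give the deleted part of Xiap, the strain, the age of the embryos or how many embryos stand behind a culture. With 1 array per group no SD can be given, and p-values set a TNF or genotype effect against the departure of the 4 arrays from an additive pattern, pooled with that of other genes.

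Complex I passes electrons from NADH, and complex II from succinate, to ubiquinone. Complex III passes them on to cytochrome c, and complex IV from there to oxygen. Complexes I, III and IV pump protons across the inner mitochondrial membrane, and complex V lets them flow back to make ATP. Most subunits are encoded in the nucleus and imported, while some central ones are encoded by mitochondrial DNA. The nuclear factors NRF1 and GABPA, an ETS protein, are known regulators of many of these genes, and their motifs were therefore looked up in the promoters.

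RefSeq promoter windows (GRCm38.p6, 250 bases before to 50 after the annotated start) were found for 60 of the 73 genes, in 65 windows. The NRF1 core GCATGCGC, searched on both strands, was in the windows of 10 of the 60 genes (16.67%), against 6.15% of genes measured on the arrays and 3.05% of all genes in the table. The longer NRF1 palindrome, which contains the core, was in 5 genes (8.33%, against 2.17% and 1.07%). The ETS letters CCGGAAG, on both strands, were in 18 genes (30%, against 20.15% and 9.93%). A match describes letters and not binding. The windows shown belong to the member with the largest rise and the member with the largest fall in knockout cells among those read from probe sets without a type letter (explained with the probe sets). Capitals mark NRF1 core and ETS matches. Uqcr11 lies at chr10:80406772-80407071 on the minus strand, and Ndufa13 at chr8:69901971-69902270 on the minus strand.
Uqcr11: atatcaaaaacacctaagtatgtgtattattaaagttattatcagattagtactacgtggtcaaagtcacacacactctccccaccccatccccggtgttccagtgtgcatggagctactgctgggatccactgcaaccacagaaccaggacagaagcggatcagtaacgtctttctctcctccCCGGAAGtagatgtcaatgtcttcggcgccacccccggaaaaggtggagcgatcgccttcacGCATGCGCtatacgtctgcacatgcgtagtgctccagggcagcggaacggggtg
Ndufa13: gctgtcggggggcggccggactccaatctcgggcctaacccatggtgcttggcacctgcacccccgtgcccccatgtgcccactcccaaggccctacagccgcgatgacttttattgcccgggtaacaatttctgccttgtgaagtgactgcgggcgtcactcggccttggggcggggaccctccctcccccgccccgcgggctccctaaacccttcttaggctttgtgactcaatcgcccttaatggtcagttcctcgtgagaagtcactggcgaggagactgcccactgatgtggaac
The Uqcr11 window held 1 ETS match and, next to the start site, 1 NRF1 core match. No match to either was in the Ndufa13 window. Among the members that rose in the knockout, 7 had a window, and Uqcr11 was the 1 of them with the NRF1 core and also the 1 with the ETS letters. The windows of the 2 members that fell and had an entry held neither.

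Signals are Affymetrix MAS5 values on a linear scale. Values under 92.5, the 40th percentile of all signals, were set to that floor before log2 ratios were taken. Where a gene had several probe sets, the brightest on average was used. By this rule 62 of the 73 genes were above the floor on all 4 arrays, 5 on some and 6 on none. The 67 genes above it on at least 1 array are called measured. Those below it throughout were Ndufa12, Ndufs4, Cox5a, Cox7a1, Cox8a and Atp5j2. Cox5a and Cox8a code for subunits that most cells need, and probe sets differ in how well they hybridise, so brightest below refers to signal alone and is not read as an order of RNA levels. Of the measured members, 40 were in the brightest of 5 equal groups of all measured genes, and 7 in the dimmest.

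The arrays had median signals of 149.95 to 182 over all probe sets, the TNF-treated wild-type array being the lowest. Control transcripts had 3' to 5' ratios between 0.757 and 0.815 (Gapdh) and between 1.08 and 1.17 (actin). Of 10 fibroblast markers on the array, 9 were above the floor on all 4 arrays, with a summed signal of 70739 to 73613. Of 8 leukocyte markers 4 were above it throughout (summed signal 2772 to 4644), while Ptprc, Adgre1 and Itgam were below it on every array. Of 10 muscle markers 3 were above it throughout (summed signal 2586 to 4571). Xiap had signals of 239 and 126 in wild-type and 180.5 and 120.1 in knockout cells, which does not check the labels because the deleted part is not known. The cultures also differed in sex-linked transcripts: Xist had 34.3 and 5.40 in wild-type and 1232 and 1601 in knockout cells, and the Y-linked Eif2s3y 489 and 308 against 2.80 and 9.10. Genotype, sex and any other difference between the cultures cannot be told apart.

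With TNF, respiratory chain transcripts of wild-type fibroblasts had signals close to those without it. The median log2 ratio was -0.00 over 67 measured members, against -0.10 over 5911 genes. No member was at least 2-fold higher, where 2.64% of all measured genes were. A single member, Cox6b2, was at least 2-fold lower, where 2.61% of all genes were. At 1.5-fold, no member was higher and 4 were lower, against 6.29% and 13.2% of all genes. On the same arrays Sod2, the gene for mitochondrial superoxide dismutase, had signals of 402 without and 1358 with TNF in wild-type cells, and 333 and 1071 in knockout cells. It rose by 1.72 (log2; SE 0.15, limma adjusted p = 0.00312) in an additive limma fit of genotype and TNF over the 4 arrays.

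By complex, the wild-type TNF medians were 0.06 for complex I, -0.01 for complex II, 0.05 for complex III, -0.22 for complex IV and -0.00 for complex V. Complex IV had the lowest median, with 3 of 12 measured members above 0, and its lowest values came from isoforms of the small subunits and from subunit 4. Cox6b2, a testis-type isoform of subunit 6b, had a signal of 206 without and 45.1 with TNF, the latter below the floor, so that it was at least 2.22-fold lower. This probe set has a type letter, explained with the probe sets, and the gene's other 2 probe sets were below the floor on every array. In knockout cells the same probe set had 209 and 131. Cox8b, the muscle-type isoform of subunit 8, had 258 and 159 in wild-type and 224 and 189.6 in knockout cells, also from a probe set with a type letter, its plain one being below the floor throughout. Cox8c, a further isoform of subunit 8, had 818 and 554, then 652 and 583, and its other probe set was below the floor throughout. Cox4i1, the common form of subunit 4, had 414 and 306, then 311 and 234, from a probe set with a type letter. The plain probe set of Cox4i1 had 138.7 and 107.4, then 138.4 and 123.5. All 4 of the probe sets used had lower signals with TNF in both genotypes, and none passed the additive fit, Cox6b2 coming nearest (log2 -0.91, limma adjusted p = 0.132).

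The 6 members of complex IV in the brightest of the 5 signal groups had wild-type TNF ratios on both sides of 0. Cox6a1, the common form of subunit 6a, had 0.23, Cox5b 0.10 and Cox7a2, the common form of subunit 7a, 0.08. Cox7a2l had -0.12, Cox6c -0.13 and Cox7b -0.22. In knockout cells the same 6 ran from -0.12 for Cox5b to 0.05 for Cox6c. Over all measured genes, the median TNF ratio in wild-type cells was -0.29 in the dimmest of the 5 signal groups and 0.03 in the brightest, and the 40 members in the brightest group had 0.05. The part of signal level in the complex IV value was not tested.

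Outside complex IV, the lowest wild-type TNF values belonged to Atp5pb and Ndufa10. Atp5pb, the b subunit of the stator of ATP synthase, had signals of 201 and 106 in wild-type and 114 and 112 in knockout cells. Ndufa10, an accessory subunit of complex I, had 489.7 and 288, then 349.8 and 371. The highest value was that of Sdhaf1, an assembly factor of complex II read from a probe set with a type letter, with 245 and 361, then 503 and 462. Ndufc1, a small accessory subunit, followed with 1278 and 1685, then 1783 and 1582. In knockout cells the log2 ratios of these 4 genes were -0.03, 0.08, -0.12 and -0.17, against -0.92, -0.77, 0.56 and 0.40 in wild-type cells.

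In Xiap knockout fibroblasts, most members had slightly lower signals with TNF. The median log2 ratio was -0.11 over 66 members, against -0.04 over 5868 genes. Of the members 19.7% were above 0, and of all genes 41.4%. No member was at least 2-fold higher or lower, where 1.48% and 0.409% of all genes were. At 1.5-fold no member was higher (3.85% of all genes) and 1, Cox6b2, was lower (2.97%). The medians were -0.09, -0.06, -0.05, -0.14 and -0.11 for complexes I to V. Among central subunits, Atp5a1, the alpha subunit of the catalytic head, had 6386 without and 5909 with TNF in knockout cells. Lower ratios were those of Ndufs1, a core subunit of complex I (log2 -0.23), and Atp5c1, the gamma subunit of ATP synthase (-0.15). Ndufv1, which carries the NADH site of complex I, had 5494 and 5095, and Uqcrc1, a core protein of complex III, 3188 and 3436. Among accessory subunits of complex I the ratios ran from -0.33 for Ndufb3 to 0.31 for Ndufa1, whose signals of 112 and 139 are near the floor.

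The TNF ratios of the genotypes rest on separate arrays. Across 66 members they had a Pearson r of 0.262 (Spearman rho 0.119), and 34 members (51.5%) had the same direction. Across 5605 genes r was 0.586, rho 0.401 and the share 65.3%. Without the 3 members lowest and the 3 highest in the mean of both ratios, r was 0.01. Such a cut tends by itself to lower r, and it was not made over all genes. These values describe genes that share 4 arrays and are not independent replicates.

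In the additive limma fit no member rose or fell with TNF at an adjusted p under 0.05 (Benjamini-Hochberg over 6174 genes), where 1.28% of all genes rose and 0.162% fell, together 1.44%. At an unadjusted p under 0.05 limma gave 1 of 67 members, Cox6b2, against 14% of all genes. The fit takes the difference of TNF response between genotypes as its error, with 1 residual degree of freedom per gene, so this difference itself has no test. It reached 2-fold in no member, where 2.53% of all genes had a higher and 1.13% a lower response in the knockout. At 1.5-fold it was higher in Atp5pb (log2 0.89) and Ndufa10 (0.85), against 10.9% of all genes. It was lower in Sdhaf1 (-0.68) and Atp5k (-0.66), against 5%. Atp5k, a membrane subunit of ATP synthase, was below the floor on the TNF-treated knockout array, so its value is a bound.

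**Figure D1:**
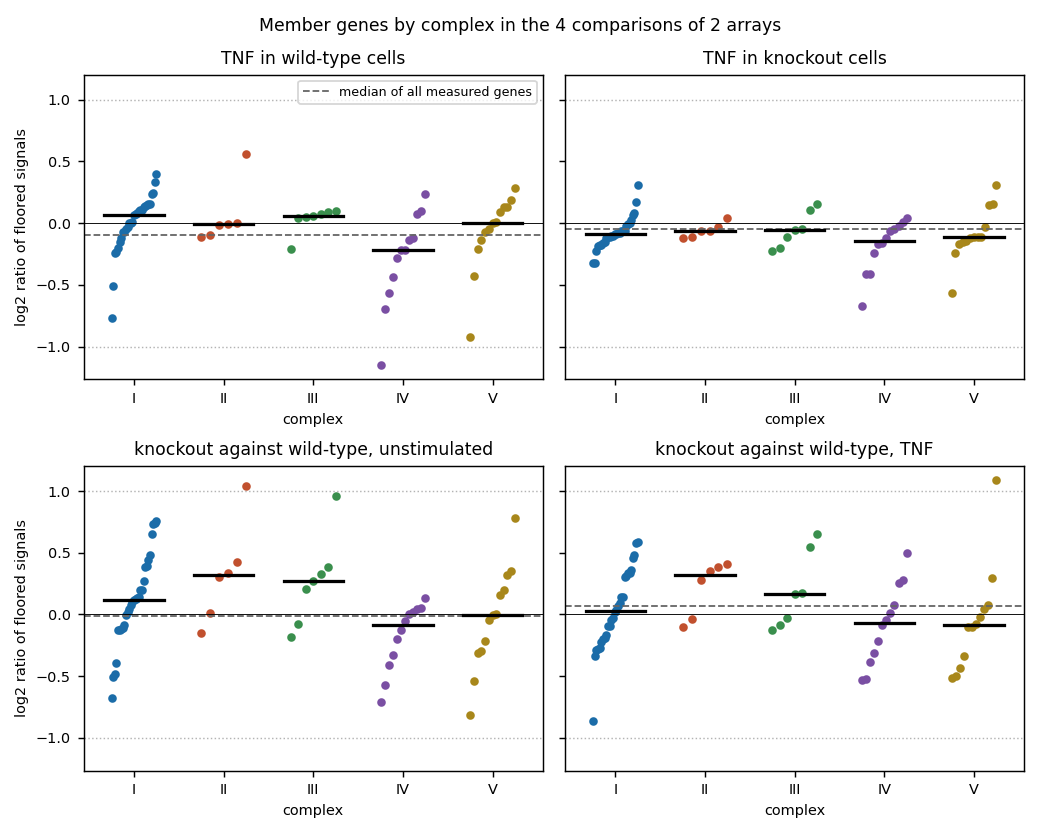
Each point is a measured member gene, placed by complex (x axis) and by its log2 ratio of floored signals (y axis) in 4 comparisons of 2 arrays. Black bars are medians of the complex, the dashed line is the median of all measured genes and dotted lines mark 2-fold; the genotype panels have medians of 0.32 for complex II and 0.27 for complex III without TNF.

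Between genotypes, the members' log2 ratios were more spread than with TNF, in both directions: their SD over members was 0.39 without and 0.35 with TNF, against 0.29 and 0.17 for the TNF ratios in wild-type and knockout cells. Over all genes these SDs were 0.70, 0.73, 0.53 and 0.40. Without TNF the median log2 ratio was 0.05 over 67 members, against -0.01 over 6062 genes. With TNF it was -0.02 over 65 members, against 0.07 over 5852 genes. Sdhaf1 was the 1 member at least 2-fold higher in the knockout without TNF (4.55% of all genes were), and Atp5d the 1 with TNF (5.62% of all genes). Both were read from probe sets with a type letter, explained with the probe sets. None was at least 2-fold lower (4.7% and 5.01% of all genes). At 1.5-fold without TNF, 7 members were higher and 3 lower, against 11.9% and 12.4% of all genes. With TNF 3 were higher and 1 lower, against 15.9% and 11.7%.

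Complexes II and III had the higher medians. Complex II stood at 0.32 without and 0.32 with TNF over 6 members, and complex III at 0.27 and 0.17 over 7. The 4 subunits of complex II, without its assembly factors, had lower medians of 0.16 and 0.12. Complex I had 0.12 and 0.03, complex IV -0.09 and -0.07, and complex V -0.01 and -0.09. The 4 assembly factors of complexes I and II had a median of 0.52 without TNF, with 4 above 0, and of 0.37 with TNF, with 3 above 0. Of these, Sdhaf1 was read from a probe set with a type letter, and Ndufaf4 had wild-type signals near the floor (109 and 115). A second probe set of Ndufaf1, with a type letter and near the floor, gave -0.15 without TNF. Each median comes from 1 pair of arrays and has no test. Setting the arrays to equal medians moved the median of all genes with TNF from 0.07 to -0.12 and that of complex III from 0.17 to -0.03. Relative to all genes, complex III with TNF was 0.10, but 0.23 with quantile normalization, 0.04 with no filter and -0.09 with plain probe sets only (an alternative chosen after seeing the data). Complex II was 0.25, and 0.19 to 0.30 over the alternatives that were run.

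In the additive limma fit, 8 members rose and 3 fell in knockout cells at an adjusted p under 0.05, where 11.4% and 10.4% of all genes did. Together these were 11 of 67 members (16.4%), against 21.9% of 6174 genes. In the brightest of the 5 signal groups, 17.5% of 40 members and 37.9% of all genes were called. At an unadjusted p under 0.05 limma gave 20 members, against 35.1% of all genes. The effect is the mean of the ratios in both pairs of arrays and its error their difference, so the choice itself favours genes with the same direction in both, and the signals given for called members are a description. Markers of cell types differed between the cultures too. In the limma fit 1 of 10 measured fibroblast markers rose (S100a4, log2 1.68) and 2 fell (Thy1, -2.26, and Pdgfrb, -0.79), 1 of 6 muscle markers rose (Actc1, 0.74), and 1 of 2 adipocyte markers fell (Fabp4, -0.69). None of 5 leukocyte, 1 epithelial or 2 endothelial markers passed it. The median ratios without TNF were -0.04 for fibroblast, 0.07 for leukocyte, 0.40 for muscle (-0.35 to 0.76) and -0.89 for adipocyte markers. With TNF they were 0.01, 0.73, 0.40 and -0.48, and the 4 leukocyte markers measured there were all higher in the knockout. Their part in the member values was not tested. In bulk RNA, fewer cells of a type and less RNA per cell cannot be told apart.

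In complex I the calls were among accessory subunits, of which 5 of 23 measured rose and 1 fell (together 26.1%, against 21.9% of all genes). Ndufb8, a subunit of the membrane arm, had signals of 1791 and 2117 in wild-type cells without and with TNF and of 3021 and 3160.1 in knockout cells. Both knockout values lay above both wild-type values, and the gene rose by 0.67 (log2; SE 0.10, limma adjusted p = 0.00523). Ndufab1, the mitochondrial acyl carrier protein that is also part of complex I, had 943 and 987, then 1567 and 1377 (log2 0.61, SE 0.12, limma adjusted p = 0.0165). Ndufa5, an accessory subunit of the matrix arm, had 1739.7 and 2194, then 2911 and 2708 (log2 0.52, SE 0.13, limma adjusted p = 0.0306). Its groups did not overlap, though its wild-type signal was higher with TNF and its knockout signal lower. Further accessory subunits rose less: Ndufa3 by 0.39, with 1499.7 and 1602, then 2033 and 2021, and Ndufb5 by 0.36, with 3591 and 3591, then 4727 and 4524. A second probe set of Ndufa3, with a type letter and near the floor, gave genotype ratios of -0.02 without and -0.17 with TNF. Over the alternatives that were fitted, the limma effect of Ndufa3 ran from 0.15 to 0.42.

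The member of complex I that fell was Ndufa13, an accessory subunit also known as GRIM-19 from work on interferon- and retinoid-induced cell death. Its signals were 1595 and 1745 in wild-type and 999.9 and 958 in knockout cells. Both knockout arrays were lower than both wild-type arrays, 1.59-fold without and 1.82-fold with TNF (log2 -0.77, SE 0.12, limma adjusted p = 0.00563). None of the 4 measured core subunits, which are conserved from bacteria, passed the fit. With 21.9% of all genes called, 4 genes are too few to set core against accessory subunits. Ndufv1 had 4781 and 4625, then 5494 and 5095, and Ndufv2 2716 and 2361, then 3113 and 2925. Ndufs1 had 992 and 892, then 1096 and 937, and Ndufs3 2262 and 2277, then 2079.5 and 1953. Ndufa7, the brightest member of the complex, had 6784 and 6622, then 6217 and 6214.

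No member of complex II passed the fit, where 21.9% of all genes did. Sdhaf1 had the highest unstimulated ratio of all members, 2.05-fold higher without and 1.28-fold with TNF (limma adjusted p = 0.0814). Its only probe set has a type letter, explained with the probe sets. Sdhc, a membrane anchor and the brightest of the complex, had 2397 and 2386, then 2957 and 2902 (log2 0.29, SE 0.09, limma adjusted p = 0.067). Sdha, the flavoprotein that oxidises succinate, had 306 and 286, then 410.2 and 380.2 (limma adjusted p = 0.197). The assembly factor Sdhaf2 had 398 and 398, then 503 and 518 (limma adjusted p = 0.214). The iron-sulphur subunit Sdhb had 2054 and 1896, then 1846 and 1764, and the other anchor, Sdhd, 1946 and 1927, then 1966 and 1881. The members of this complex thus did not share a direction: Sdhb had ratios of -0.15 without and -0.10 with TNF, and Sdha 0.42 and 0.41.

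In complex III, 2 of 7 members rose (28.6%, against 11.4% of all genes). Uqcr11, its smallest subunit, had signals of 836 and 882 in wild-type and 1629 and 1390.3 in knockout cells, 1.95-fold higher without and 1.58-fold with TNF (log2 0.81, SE 0.13, limma adjusted p = 0.00697). Uqcrc2, a core protein, had 893 and 771, then 1167 and 1128 (log2 0.47, SE 0.13, limma adjusted p = 0.0435). The other core protein, Uqcrc1, had 3365 and 3496, then 3188 and 3436, with a log2 effect of -0.05. Uqcrq, a small subunit and the brightest of the complex, had 5088 and 5446, then 4489.6 and 4993.

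Complex IV held 1 called member of 12 (8.33%, against 21.9% of all genes), Cox6c, which fell. Its signals, the brightest of the complex, were 7988 and 7286 in wild-type and 4885 and 5043 in knockout cells, 1.64-fold lower without and 1.44-fold lower with TNF (log2 -0.62, SE 0.09, limma adjusted p = 0.00486). Of the tissue isoforms, Cox6a1 had ratios of -0.05 without and -0.31 with TNF, and its muscle form Cox6a2 had signals of 237 and 205, then 159.7 and 142 (log2 -0.55, limma adjusted p = 0.113). Cox7a2 had ratios of 0.06 and -0.08, while its muscle form Cox7a1 was below the floor on every array. Cox6b1 had signals of 219.8 and 181, then 242 and 182. The common form Cox8a was below the floor on every array, so the forms of subunit 8 could not be compared, and Cox8b had ratios of -0.20 and 0.25. Cox4i2 was not analysed here.

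In complex V, 1 member rose and 1 fell of 13 (together 15.4%, against 21.9% of all genes). Atp5o, which joins the stator to the catalytic head, had signals of 3749 and 4104 in wild-type and 2578 and 2879 in knockout cells (log2 -0.53, SE 0.09, limma adjusted p = 0.00828). Both knockout arrays were lower than both wild-type arrays. Atp5d, the delta subunit of the central stalk, had 414 and 413, then 712 and 882, 1.72-fold higher without and 2.13-fold with TNF (log2 0.94, SE 0.17, limma adjusted p = 0.011). Its neighbour in the stalk, the epsilon subunit Atp5e, had 1257 and 1529, then 1022 and 1132 (log2 -0.37, limma adjusted p = 0.0677). The gamma subunit Atp5c1 had 5240.5 and 4981, then 5254 and 4725. Atp5md, a small membrane subunit and the brightest of the complex, had 5341 and 5842, then 6802 and 6037, and Atp5pb had the lowest unstimulated ratio of all members (-0.82) but 0.07 with TNF.

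**Figure D2:**
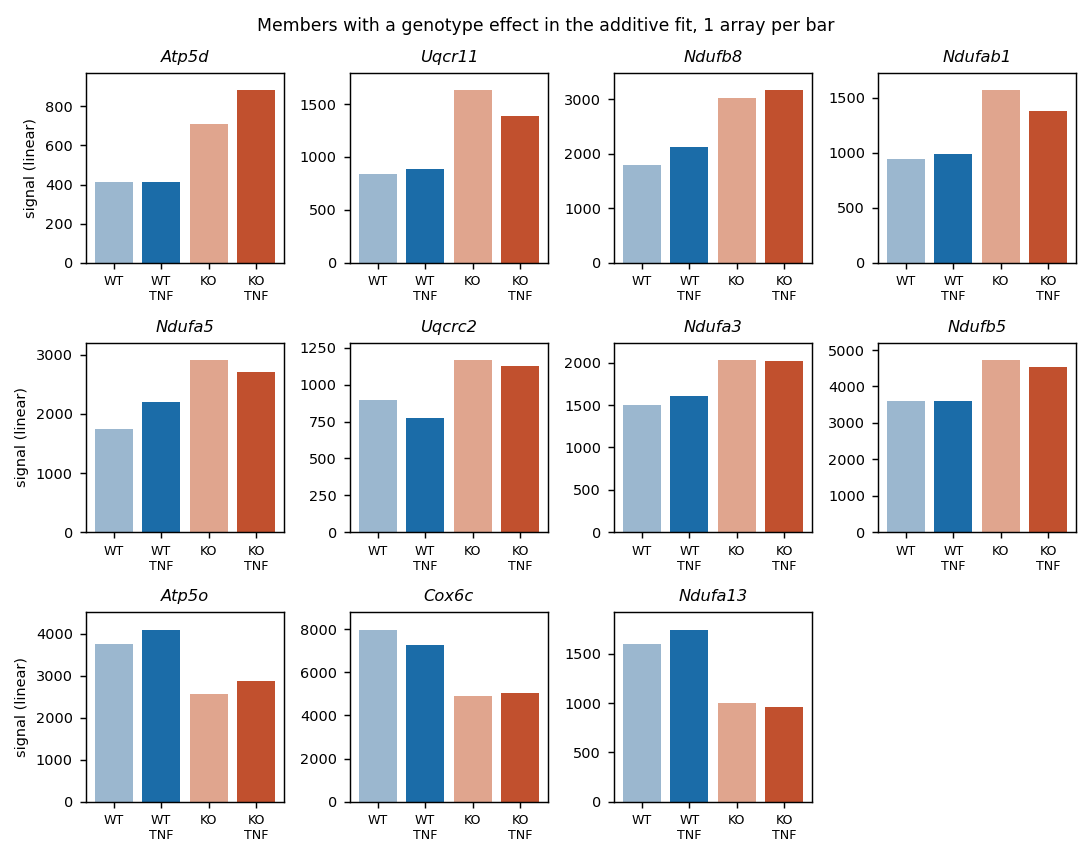
Bars give the signal (linear scale, y axis from 0) on each of the 4 arrays for the 11 members called between genotypes, 1 array per bar, WT for wild-type and KO for knockout. The genes were chosen by their genotype effect on these same arrays, a choice that favours separate bars; the knockout bars are higher for 8 genes and lower for 3.

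The genotype ratios without and with TNF rest on separate arrays. The titles of the samples do not say whether both arrays of a genotype come from the same culture. Across 65 members they had a Pearson r of 0.685 (Spearman rho 0.658), and 47 members (72.3%) had the same direction. Across 5740 genes r was 0.812, rho 0.671 and the share 73.9%. Without the 3 members lowest and the 3 highest in the mean of both ratios, r was 0.538. This cut, too, tends by itself to lower r and was not made over all genes.

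**Figure D3:**
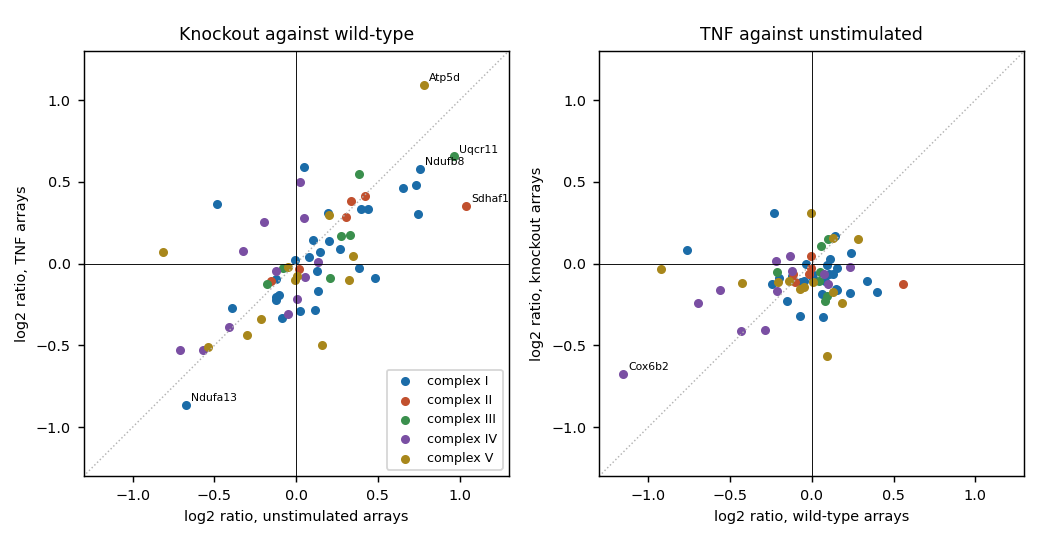
The left panel sets the log2 ratio between genotypes on the unstimulated arrays (x axis) against that on the TNF arrays (y axis), 1 point per member gene coloured by complex, with the line of equality dotted. The right panel sets the TNF ratio in wild-type cells against that in knockout cells; r is 0.685 on the left and 0.262 on the right.

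Several calls rest on probe sets with a type letter (f, r, i, s or g) in their names. On this array f, s and g mark probes that were not chosen as unique to a transcript, and f stands for a family of similar sequences. The letters r and i mark other departures from the usual choice of probes. Probe sets with a type letter represented 19 of the 67 measured members, 5 of the 8 that rose (Atp5d, Ndufa3, Ndufa5, Ndufb5 and Uqcrc2) and 1 of the 3 that fell (Cox6c). The called genes among them carry f or, for Ndufa5, s. Near-identical copies cannot be told apart there, so these 6 genes are uncertain. Atp5d was the 1 member whose probe sets lay over 1 apart on the log2 scale. Its 3 family probe sets gave genotype ratios of 0.68 to 0.78 without and 0.69 to 1.09 with TNF. A plain probe set near the floor, with signals of 155 and 95.5 in wild-type and 96.2 and 98.3 in knockout cells, gave -0.69 and 0.04, and the remaining one was below the floor. With plain probe sets only, an alternative chosen after seeing the data, the limma effect of Atp5d was -0.32 (adjusted p = 0.351). Under it 3 members rose (Ndufb8, Ndufab1 and Uqcr11) and 2 fell (Ndufa13 and Atp5o), of 51 measured. Together these were 9.80% of the members, against 24.1% of all genes in that setting.

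Uqcr11 and Ndufa13 passed the limma threshold under all 8 alternatives that were fitted, with adjusted p of 0.00321 to 0.041 and 0.000409 to 0.0398. The other 9 calls were each lost under at least 1 of them. With no intensity trend in the variance, 2 members rose (Atp5d and Uqcr11) and 1 fell (Ndufa13). Together these were 4.48% of the members, against 14.4% of all genes in that setting.

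**Figure D4:**
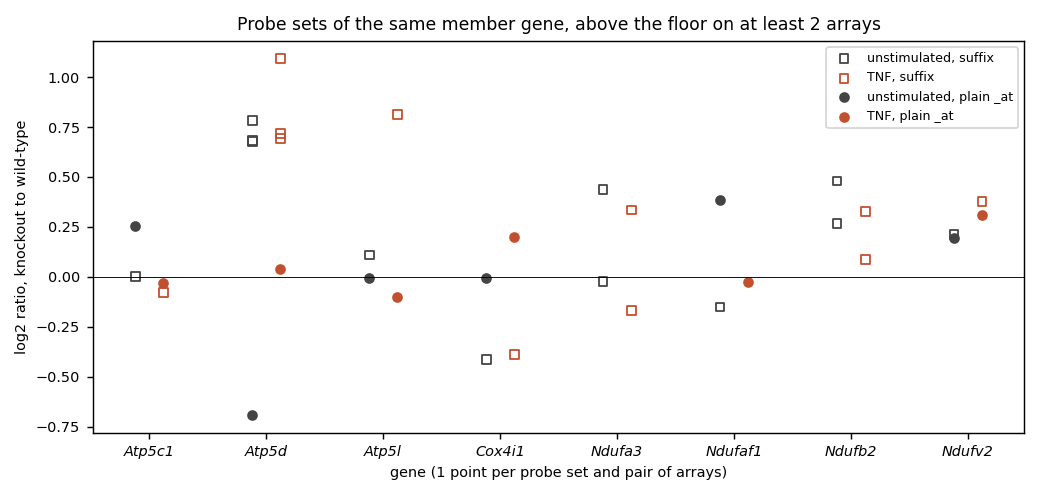
Points give the log2 ratio between genotypes (y axis) for each probe set of the 8 member genes with at least 2 probe sets above the floor on at least 2 arrays (x axis). Squares are probe sets with a type letter and circles plain ones, grey without and red with TNF; the probe sets of Atp5d run from -0.69 to 1.09.

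The other mitochondrial genes were read from 5 lists, and none of their measured genes rose or fell with TNF in the limma fit (1.44% of all genes did). Between genotypes, 2 of 14 electron carriers and assembly factors rose and 3 fell, where 11.4% and 10.4% of all genes did. Cycs, cytochrome c, had signals of 191 and 225 in wild-type and 331 and 409 in knockout cells (log2 0.83), and Cox18, which helps insert a complex IV subunit into the membrane, rose by 0.51. Surf1, an assembly factor of complex IV, had 1190 and 945, then 622 and 548, and fell by 0.86 (SE 0.14, limma adjusted p = 0.00697). Cox17, which carries copper to complex IV, had 2471 and 2384, then 1656 and 1489.9, and fell by 0.63 (limma adjusted p = 0.00671). Lrpprc, which stabilises mitochondrial mRNA, fell by 0.60. The complex IV members themselves had a median of -0.10 in this fit.

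Of 16 genes of pyruvate dehydrogenase and the citric acid cycle, 2 rose and 2 fell. Cs, citrate synthase, had 1779.7 and 1765 in wild-type and 3011 and 2998 in knockout cells (log2 0.76, SE 0.09, limma adjusted p = 0.00269). The alternative beta subunits of succinyl-CoA ligase differed in direction, Suclg2 rising by 0.63 and Sucla2 falling (log2 -0.57), and Pdhb, a subunit of pyruvate dehydrogenase, fell by 0.49. Of 59 mitochondrial ribosomal protein genes, 5 rose (Mrpl12, Mrpl17, Mrpl23, Mrpl36 and Mrps34) and Mrps18a fell. Mrpl23 had 489 and 432, then 1195 and 1039.8 (log2 1.28, limma adjusted p = 0.00184). Of 13 regulators of mitochondrial transcription and biogenesis, Polrmt, the mitochondrial RNA polymerase, rose by 0.77, and of 25 genes of import, folding and transport, Slc25a5, an ADP/ATP carrier, rose by 0.52. Among all genes 21.9% were called. A further 5 list genes had a 2-fold ratio in some pair of arrays without passing the fit. Mrps16 had 266 and 83.3, then 114 and 128, Mrps5 262 and 92.6, then 232 and 296, and Mrpl46 180.2 and 91.4, then 232 and 216. Slc25a3, the phosphate carrier, had 228 and 107, then 183 and 257, and Nrip1, a nuclear receptor corepressor, 1002 and 646, then 490.5 and 648. Each of these 5 was lowest or next to lowest on the TNF-treated wild-type array, and their limma adjusted p for genotype was 0.0787 for Mrpl46 and higher for the others.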

How the data were processed

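The intensities deposited by the authors are MAS5 signals on a linear scale, according to the processing notes of the submitters, with no version or settings in the sources used here. Each of the 4 columns already had a trimmed mean of 500.3 (2% left out at each end), so the common scaling factor was 1. The platform's table gave 1 symbol for 10833 probe sets, several for 396 and none for 1193, and all 73 member genes matched RefSeq by Entrez identifier. Ratios are log2 of floored signals, and a ratio with an array at the floor is a bound. The additive model was fitted in R 4.3.3 with limma 3.58.1 (lmFit, eBayes with an intensity trend, 2-sided, 5.62 prior degrees of freedom). On 20 simulated data sets of 6174 genes it recovered a median of 94% of TNF effects and 93% of genotype effects of 1 (log2). False calls had a median of 6.52% and 4.38% and a maximum of 13.1% and 11.7%. The simulation had 200 changed genes per effect and independent noise, with no difference between cultures. Genes of similar brightness were given the same noise SD, so a spread that differs from gene to gene was not simulated. Effects under 1, such as those of the 11 called members, were not simulated, so these values do not describe those calls. Alternatives were quantile normalization, equal medians, other floors, the mean over probe sets, no trend and a 1.5-fold threshold, with plain probe sets and members above the floor throughout added after seeing the data.

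Named were, in each complex, the brightest member and the extremes of each comparison, then members past 2-fold or the fit's threshold, tissue isoforms, and list genes past either. Cox8c, Ndufv1, Ndufv2, Ndufs1, Ndufs3, Sdhd, Uqcrc1, Atp5a1, Atp5c1, Cox5b and Cox7a2l were chosen after their values were seen. Members and lists were chosen with earlier results of these data known.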

Additional observations from a re-analysis of the deposited data

How the results depend on the processing

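Each group has 1 array, so leaving out an array leaves no residual degree of freedom, and no such alternative was run. No paired analysis was possible because no group has replicates that carry numbers; the additive fit already reads TNF within each genotype and genotype within each TNF state. Counts of members and medians moved under these alternatives; the cause was not tested. At 1.5-fold the counts were 4 lower for TNF in wild-type and 1 lower in knockout cells, 7 higher and 3 lower between genotypes without TNF, 3 higher and 1 lower with TNF, and 2 higher and 2 lower for the difference of response. With equal medians, the TNF medians in wild-type cells were 0.28 over all members and 0.34, 0.27, 0.33, 0.063 and 0.28 for complexes I to V. Those between genotypes with TNF were -0.21, then -0.17, 0.12, -0.032, -0.27 and -0.28, and those of the difference of response -0.30, then -0.33, -0.25, -0.34, -0.17 and -0.31. All genes moved as well, from -0.10 to 0.17 for TNF in wild-type cells, and the members' median relative to all genes was 0.10 and then 0.10, but 0.01 with quantile normalization, 0.04 with the floor at the 60th percentile and 0.18 with no filter. With quantile normalization complex III went from 0.15 to 0.02 and complex V from 0.09 to -0.04. With equal medians, 0 members were 2-fold higher and 1 lower between genotypes with TNF, and 4 rose between genotypes in limma. That setting also gave 1 member that fell with TNF, Cox6b2 (log2 -0.85, limma adjusted p = 0.00526). Between genotypes, equal medians also called Cox6a2 (limma adjusted p = 0.0361) and Sdhaf1 (0.0498). The floor at the 60th percentile called Sdhaf1 (0.04), and quantile normalization called Sdhc (0.0352). With a floor at the 20th percentile, 3 members were 2-fold lower with TNF in wild-type and 1 in knockout cells, 2 higher between genotypes with TNF, and 2 higher and 1 lower in the difference of response. At the 60th percentile 0 were lower with TNF in wild-type cells and 0 higher between genotypes without TNF. With no filter the counts were 1 higher and 3 lower (TNF, wild-type), 2 lower (TNF, knockout), 2 higher and 1 lower (genotypes, no TNF), 2 higher and 1 lower (genotypes, TNF), and 2 and 2 for the difference of response. With the mean over probe sets, 0 were lower with TNF in wild-type cells, 0 higher between genotypes with TNF, and 3 rose in limma. With plain probe sets, 0, 0 and 0 members were past 2-fold for TNF in wild-type cells (lower) and for genotypes without and with TNF (higher), the complex III median with TNF was -0.025, 3 members rose in limma, and Atp5d turned to -0.32. With members above the floor throughout, 0 were 2-fold lower with TNF in wild-type cells. Of all genes, limma called 22.7% between genotypes with equal medians and 14.5% with the mean over probe sets. The share was 24.1% with plain probe sets and 14.4% with no trend. With no trend, 2 members rose and 1 fell in limma. The other 305 such values stayed within 1.5 times (counts) or 0.116 (medians, the median residual SD of members).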

Other observations

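Both called members on chromosome 10, Atp5d and Uqcr11, rose, and their promoter windows are 264.7 kb apart in GRCm38.p6. With plain probe sets only, the limma effect of Atp5d was -0.32. The chromosome holds 3 of the 73 member genes, and the remaining one, Ndufa12, was below the floor on every array. Chromosome 7 holds 10 members, of which 3 were called, Ndufa3, Ndufab1 and Uqcrc2, and all of these rose. The windows of Ndufa3 and Ndufab1 are 118480 kb apart. Over all chromosomes, limma called 16.4% of the measured members and 21.9% of all genes. These positions were noticed after the values were seen, and the counts were not tested.

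The cultures differed in Xist and Eif2s3y, and 3 members are X-linked. Cox7b had signals of 1742 and 1496 in wild-type and 1800.4 and 1817 in knockout cells, Ndufb11 2201 and 2025, then 2365 and 2239.7, and Ndufa1 108 and 82.9, then 112 and 139. Their genotype effects were 0.16, 0.12 and 0.32 on the log2 scale, and none passed the limma threshold (adjusted p of 0.354, 0.409 and 0.334).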
